A study of Mus musculus with 4 samples.

Results

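The genes of the cytosolic ribosome are described here by their DNA methylation in germ cell preparations from testes with Stra8-Cre deletion of Np95. Members were the autosomal protein-coding RefSeq genes whose symbol is Rpl or Rps followed by a digit, or Rpsa, leaving out Rpl10l and the Rps6k kinase genes. This gave 83 genes of 20665, of which 49 carry an Rpl symbol (large subunit) and 34 an Rps symbol or Rpsa (small subunit). The symbol rule also takes in retrocopies, divergent copies and Rps19bp1, which encodes a protein that binds Rps19 and is not itself a ribosomal subunit. The standard genes Rpl39, Rpl10, Rps4x and Rpl36a lie on the X chromosome and were outside the rule.

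Whole-genome bisulfite sequencing compared 2 knockout samples, Np95fl/fl:Stra8-Cre, with 2 control samples, Np95fl/fl, all from testes of 21-day-old mice. Both alleles of Np95 are floxed in all 4 samples, and the knockouts also carry Stra8-Cre, a recombinase driven by a promoter active in premeiotic male germ cells, so germ cells that escape recombination and somatic cells of the tubule keep the gene. Seminiferous tubules were selected with tweezers, digested to cells and put through a mesh that holds back interstitial tissue. The labels do not state whether replicates are different animals. The p-values below therefore rest on spread that could be technical.

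Methylation of a CpG is copied at each round of replication, and Np95, also called Uhrf1, recognises the hemimethylated site and recruits the maintenance methyltransferase Dnmt1. Ribosomal protein genes are housekeeping genes: every growing cell transcribes them strongly, most from a CpG island promoter that is kept free of methylation, and many start within a run of pyrimidines, the TOP motif, that couples their translation to growth signals. The family has left many processed copies across the genome, and a few divergent paralogs are tissue-restricted, among them Rpl3l in striated muscle and Rpl39l in the testis.

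The promoters of 4 members show the kinds of start site described below. All sequences are RefSeq, build GRCm38.p6 (mm10), read on the plus strand, with each CpG in capitals. Rpl39l (chr16:10170128-10170257) had the largest gain of any member, Rps2 (chr17:24719963-24720092) is a CpG island that stayed unmethylated, and Rpl3l (chr17:24727726-24727855) and Rpl32l (chr10:20208339-20208468) are CpG-poor and methylated in controls.
Rpl39l: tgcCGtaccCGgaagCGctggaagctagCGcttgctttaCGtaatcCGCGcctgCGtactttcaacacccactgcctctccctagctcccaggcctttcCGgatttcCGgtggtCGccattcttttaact
Rps2: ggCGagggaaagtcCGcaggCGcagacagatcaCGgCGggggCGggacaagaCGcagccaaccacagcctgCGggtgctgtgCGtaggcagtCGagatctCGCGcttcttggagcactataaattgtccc
Rpl3l: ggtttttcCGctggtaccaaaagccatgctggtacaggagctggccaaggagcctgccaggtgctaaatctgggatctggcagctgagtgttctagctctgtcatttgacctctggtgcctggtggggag
Rpl32l: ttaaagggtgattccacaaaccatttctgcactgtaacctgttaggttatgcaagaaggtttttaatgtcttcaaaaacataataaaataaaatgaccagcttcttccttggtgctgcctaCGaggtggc
The stretches of 130 bases hold 11 CpGs in Rpl39l and 12 in Rps2, against 1 each in Rpl3l and Rpl32l. The 11 CpGs of Rpl39l averaged 15.0% and 21.4% in the knockouts and 2.98% and 6.46% in the controls, while the 12 of Rps2 averaged 1.25% and 2.59% in the knockouts and 0% and 0.995% in the controls. The lone CpG of Rpl3l was at 36.4% and 41.1% in the knockouts and 80.7% and 83.9% in the controls. That of Rpl32l was at 60% and 44.4% in the knockouts and 77.8% and 91.7% in the controls. Both knockouts thus lay above both controls in the CpG-dense stretches, by under 3 points in Rps2, and below both at the lone CpGs.

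A second feature of the family is the pyrimidine run at the start. It was searched on the coding strand as a C followed by 4 or more letters that are each C or T, beginning within 5 bases of the listed start. Of 63 members with a promoter in the table, 26 (41.3%) held such a run, against 18.7% of 16457 promoters of the same length. The start regions of 3 of the 26, read on the minus strand with the run in capitals, are those of Rpl15 (chr14:18270957-18271026), whose product sits in the large subunit, Rpl34 (chr3:130730369-130730438) and Rps6 (chr4:86857338-86857407), the small subunit protein phosphorylated by S6 kinase.
Rpl15: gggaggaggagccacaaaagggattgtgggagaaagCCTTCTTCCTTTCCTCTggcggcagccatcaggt
Rpl34: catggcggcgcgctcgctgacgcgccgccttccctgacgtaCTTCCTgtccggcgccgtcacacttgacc
Rps6: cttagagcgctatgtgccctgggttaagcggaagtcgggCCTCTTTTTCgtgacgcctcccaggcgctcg
The 300 bases around the start held a median of 21 CpGs in members (range 3 to 42) and 15 over all promoters, at the same median GC content of 57.7%. For genes with several listed starts, the start with most CpGs in these 300 bases was used, here and in the search for the run. A match is a description of the letters only.

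Methylation was given by the authors in percent for each cytosine of a CpG. Of 37230584 listed cytosines, between 28999710 and 29530971 had a value in the knockouts and between 29509008 and 29774194 in the controls. The 22421484 with a value in all 4 samples were used. The reads behind each value are unknown, so the precision of single cytosines could not be stated. Each gene was read in 3 regions with at least 5 measured CpGs: the start end and the far end, each from 1000 bp outside to 500 bp inside the annotated gene end, and the body between them. The start end followed the strand for 63 members, and for 17 without a listed strand it was the end with at least 2 times as many CpGs. All 80 start ends passed, as did 75 of 80 far ends and 76 of 78 bodies. The other 3 genes (Rpl34-ps1, Rpl36 and Rps14) had 6 unassigned ends, and 5 genes were too short to have a body. Far ends with 4 CpGs (Rps20, Rps23rg1, Rps24) fell just outside the minimum, and those with 6 (Rpl15, Rpl27, Rpl39l) just inside. These outside 3 ran between 42.8% and 57.3% in the knockouts and between 74.5% and 95.3% in the controls, and the inside 3 between 39.5% and 54.1% in the knockouts and between 82.2% and 95.7% in the controls.

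**Figure D1:**
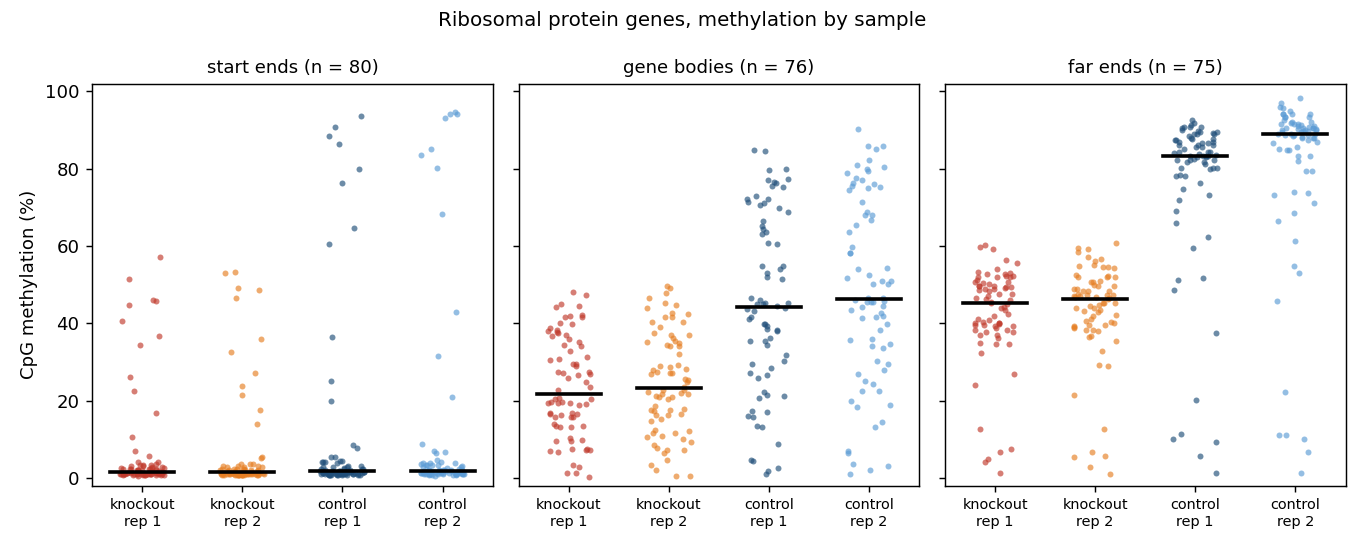
CpG methylation (%) of every measured member in each sample, with 1 point per gene and a bar at the median, for start ends (n = 80), gene bodies (n = 76) and far ends (n = 75). The start-end medians sit near 0 in all 4 samples, with a few genes far above, while the medians of bodies and far ends lie lower in both knockouts than in both controls.

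Start ends of the family were almost free of methylation with or without Np95. The median member had 1.60% in the knockouts and 1.73% in the controls, against 2.57% in the knockouts and 3.12% in the controls over all genes. Per sample, the median over members was 1.67% and 1.5% in the knockouts and 1.70% and 1.80% in the controls, so the sample medians of both groups lay within less than a point of each other. The standard genes lay close to these medians: Rpl3, which lies near the peptidyl transferase centre, had 0.957% and 0.962% in the knockouts and 0.855% and 1.04% in the controls, and Rps19, mutated in Diamond-Blackfan anaemia, had 0.909% and 1.06% in the knockouts and 0.887% and 1.08% in the controls. In both genes the groups overlapped.

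A region was called changed at a Benjamini-Hochberg adjusted p under 0.05 by limma and a difference of at least 10 points. By this rule 9 of 80 start ends (11.2%) were lower in the knockouts, against 25.8% of all start ends, and 0 were higher, against 0.263%. The count was 5 of 47 large subunit genes and 4 of 33 small subunit genes. Without the minimum difference 20 were lower (41.3% of all start ends) and 4 higher (3.78%). Both knockouts lay below both controls at 31 of 80 (57.0% of all start ends) and above both at 9 (9.93%). The median difference, knockout minus control, was -0.20 points in members and -0.59 points over all genes. The median change of all gene ends, far ends included, was -1.93 on the log2 odds scale. Centring every sample on its median over these ends turns the directions round, largely by construction, since start ends near 0 have little room to fall. The members' count was then 5 lower (14.3% of all start ends) and 72 higher (77.8%). Calls after centring rest on the adjusted p alone. With each region on its own spread, 2 of the 9 losses, those of Rps2 and Rpl37rt, stayed called (10.3% of all start ends were), and the other 7 had a limma adjusted p between 0.054 and 0.070.

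Most start ends could not fall by much, because 69 of 80 were under 10% in the controls. Among these 69, the medians were 1.35% in the knockouts and 1.55% in the controls, beside 1.56% in the knockouts and 1.69% in the controls for the 11501 start ends of all genes under the same limit. Without a minimum difference, 10 of the 69 were lower, where 17.5% of the 11501 were, and 4 were higher, where 5.24% were. Both knockouts lay above both controls at 9 of the 69, against 14.0% of the 11501, and below at 21, against 39.2%. The shares of the members were near the background in each of these counts or below it.

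The 9 start ends that fell were of 3 kinds. The first is retrocopies and divergent copies whose listed start site is the annotated gene end. Rpl37rt, a retrotransposed copy of Rpl37 on chromosome 5, had 51.4% and 53.3% in the knockouts and 93.6% and 93.1% in the controls (difference -41.0 points, limma adjusted p = 1.1e-07). An end of Acads also lies in this window. Rps27rt, a retrotransposed copy of Rps27, had 44.8% and 48.7% in the knockouts and 86.4% and 94.1% in the controls, over 9 CpGs. Rps23rg1, a retrogene derived from Rps23, had 26.0% and 27.3% in the knockouts and 64.6% and 80.1% in the controls. The groups did not overlap in any of these 3, and Rps23rg1 kept the smallest share of its control level, 36.8%.

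Rpl32l and Rpl3l belong to the same kind. Rpl32l, a copy of Rpl32 whose promoter is printed above, had 57.1% and 53.0% in the knockouts and 88.5% and 94.7% in the controls. Rpl3l, the striated muscle paralog of Rpl3, had 22.5% and 23.7% in the knockouts and 36.6% and 43.0% in the controls (difference -16.7 points, limma adjusted p = 0.00056). Its second listed start site, 4859 bp inside the gene, had 42.6% and 49.4% in the knockouts and 87.5% and 92.7% in the controls. Both Rpl3l starts were thus methylated in the controls and lower in the knockouts. The standard counterparts of these copies stayed near 0: Rpl37 had 0.929% and 1.20% in the knockouts and 1.23% and 1.00% in the controls, Rps23 had 1.12% and 1.13% in the knockouts and 0.973% and 1.05% in the controls, and Rps27 had 1.08% and 1.5% in the knockouts and 2.47% and 2.17% in the controls. A retrocopy can be close in sequence to its parent and to pseudogenes of the family. How reads that fit several copies were placed is not given in the sources used here, so the levels of the copies are uncertain to that extent.

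The second kind is genes with a listed start site further inside the gene that was unmethylated in all 4 samples. Rps2, a protein at the mRNA entry side of the small subunit, had 46.1% and 46.6% at the gene end in the knockouts and 90.7% and 94.3% in the controls (difference -46.2 points, limma adjusted p = 6.8e-08), the largest loss at any member's start end. The gene-end window also holds an end of Rnf151, and whether that neighbour has a part in the loss was not tested. The listed start site of Rps2 is 1942 bp further in. The same window placed there had 1.33% and 1.79% in the knockouts and 0.889% and 1.91% in the controls. Rps2 thus fell at the annotated end, and its groups overlapped at the start site.

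Rpl22 and Rps27l gave a like pair of values. Rpl22, a large subunit protein that is dispensable for translation in general, had 34.4% and 36.0% at the gene end in the knockouts and 60.5% and 68.2% in the controls. This end is itself a listed start, and at a second one, 1290 bp inside, the gene had 1.88% and 1.77% in the knockouts and 1.74% and 1.78% in the controls. Rps27l, a paralog of Rps27 induced by p53, had 45.9% and 32.5% at the gene end in the knockouts and 80.0% and 85.0% in the controls, and at the listed start 1462 bp inside it had 0.928% and 1.40% in the knockouts and 0.947% and 1.08% in the controls. At these inner starts the limma adjusted p was 0.90 for Rpl22 and 0.68 for Rps27l. With windows placed on all 75 listed start sites of the 63 members, 7 were lower, against 26.2% of all start sites, and 0 were higher, against 0.204%. This reading of the start sites was chosen after seeing the data.

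The third kind is Rpl17, a large subunit protein at the exit of the peptide tunnel, for which no strand was listed. Its CpG-rich end had 40.6% and 49.1% in the knockouts and 76.3% and 83.5% in the controls over 13 CpGs. Its body had 7.33% and 7.27% in the knockouts and 13.5% and 14.5% in the controls over 83 CpGs. The end therefore lay at a higher level than the body in all 4 samples, and its place relative to the start of Rpl17 was not analysed here.

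Of the start ends at 10% or more in the controls, 2 were not called. Rpl29 had 10.7% and 14.0% in the knockouts and 19.9% and 21.0% in the controls, a difference of -8.06 points with a limma adjusted p of 0.0029, short of the 10-point minimum. Rpl31-ps12, annotated as protein-coding despite its pseudogene symbol, had 36.6% and 21.5% in the knockouts and 25.1% and 31.5% in the controls over 7 CpGs. Its groups overlapped, and the knockouts differed from each other by more than the controls did. The limma adjusted p was 0.95.

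**Figure D2:**
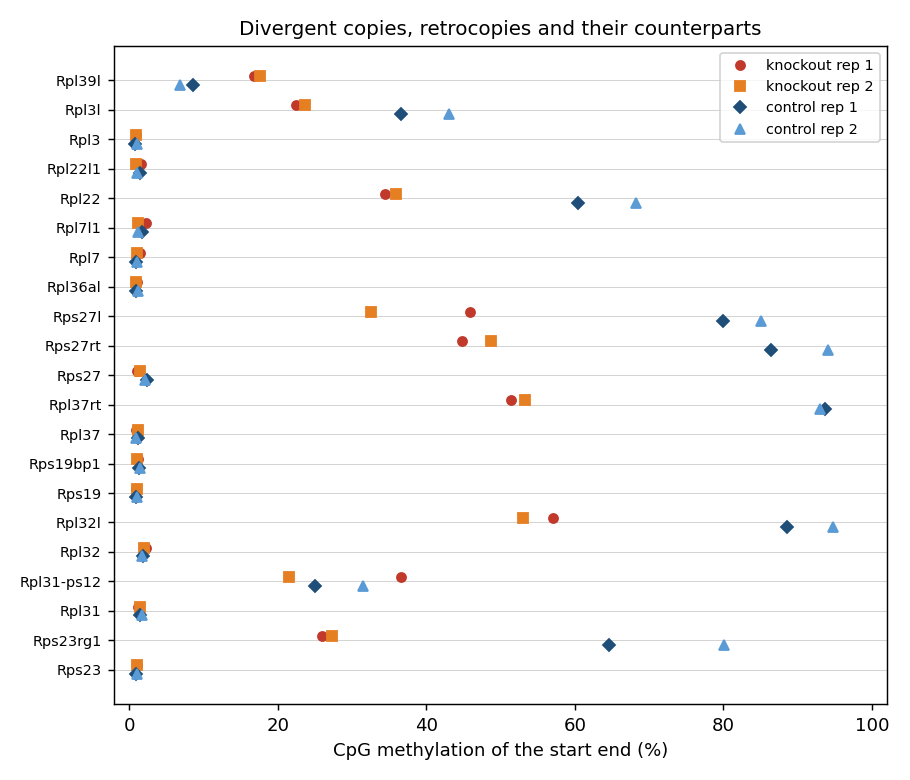
CpG methylation (%) of the start end in each sample for divergent copies and retrocopies, each above its standard counterpart where that was measured. Rps19bp1, which is not a copy, is shown above Rps19, whose product its protein binds. Rpl37rt, Rps27rt, Rps23rg1, Rpl32l and Rpl3l lie lower in both knockouts than in both controls, Rpl39l lies higher in both, and the counterparts sit near 0 except Rpl22, which has a second listed start 1290 bp further in.

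Rpl39l moved the other way. It is the autosomal paralog of X-linked Rpl39, lines the peptide exit tunnel of ribosomes in spermatogenic cells, and in mouse is needed for normal sperm. Its start end on chromosome 16 (chr16:10169197-10170696, 33 CpGs) had 16.8% and 17.6% in the knockouts and 8.56% and 6.85% in the controls. The means were 17.2% ± 0.518 in the knockouts and 7.71% ± 1.20 in the controls (SD, n = 2 each), and both knockouts lay above both controls. The difference was 9.51 points (limma adjusted p = 1.4e-05), under the 10-point minimum, so it was not called. Of 17128 start ends, 54, Rpl39l included, gained as much. With 500 bp outside the gene in place of 1000 bp it was called, at 11.5 points, and likewise without control replicate 1, at 10.4 points.

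The gain of Rpl39l covered the start site and the bases close to it on both sides, and reached further downstream. At 22 of the 33 CpGs both knockouts were above both controls, and at 2 both were below. Within 250 bp of the start, 24 CpGs averaged 13.9% and 18.4% in the knockouts and 5.84% and 4.90% in the controls, and both knockouts were above at 19 and below at 0. The 11 CpGs printed above lie in this interval. Over 250 bp downstream, 5 CpGs averaged 29.0% and 13.5% in the knockouts and 11.5% and 5.40% in the controls, with both knockouts above at 3 and below at 0. Over 250 bp upstream, 4 CpGs averaged 19.7% and 10.6% in the knockouts and 23.7% and 20.3% in the controls. Both knockouts were below at 2 of these 4 and above at 0. Both knockouts thus averaged above both controls within 250 bp of the start on either side and further downstream. They averaged below both only at the few CpGs over 250 bp upstream. At the outermost CpG, 947 bp upstream, the knockouts differed widely, at 61.8% and 22.2%, with the controls at 44.1% and 31.9%.

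**Figure D3:**
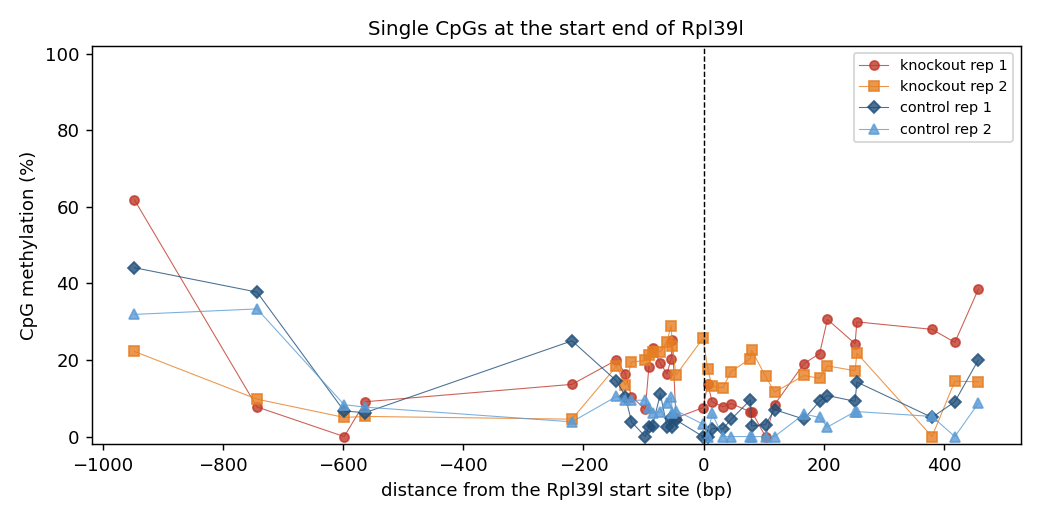
CpG methylation (%) of each measured CpG at the Rpl39l start end against its distance from the start site in bp, 1 line per sample. Around the start, at 0, most CpGs lie higher in both knockouts than in both controls. The samples mix 947 bp upstream.

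The body and far end of Rpl39l went down with the rest of the family. The body had 44.6% and 37.1% in the knockouts and 64.4% and 63.7% in the controls (difference -23.2 points), and the far end had 54.1% and 39.5% in the knockouts and 87.3% and 91.0% in the controls (difference -42.4 points). Both fell by the limma test, with adjusted p = 2.4e-15 for the body and 4.5e-07 for the far end. For 97.0% of bodies that test pools the variance fully over regions. Its p-values therefore do not measure the spread between the knockouts of a gene, here an SD of 5.32 points in the body. At gene ends the test also takes most of its variance from other regions, and the knockout SD at this far end was 10.3 points. They also do not rank the body against the far end. Within the same gene the start was thus higher and the rest lower in the knockouts. The body kept 63.8% of its control level, among the 3 highest shares in the family.

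The other gains at start ends were small. Rpl38, a small large-subunit protein linked to the translation of Hox mRNAs in mouse embryos, had 6.91% and 5.06% in the knockouts and 0.847% and 2.56% in the controls (difference 4.28 points, limma adjusted p = 0.00082). Its listed start is 762 bp inside the gene, where the window had 1.62% and 1.71% in the knockouts and 1.34% and 1.11% in the controls, with an adjusted p of 0.23. The gain of Rpl38 was therefore at the annotated end and was not detected at the start site. Rpl5, a partner of 5S rRNA and Mdm2, gained 1.37 points (adjusted p = 0.0054 by limma) and Rpl21 gained 1.06 points (adjusted p = 0.023 by limma). Both have their values under 4% in every sample, and Rpl21 differed by 0.11 points with the shorter window.

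The marker genes of the sample were read in the same start ends. Of 8 male germ cell markers, 4 (Sycp3, Mael, Sycp1, Dazl) rose, against 0.263% of all start ends. The median over the 8 was 15.7% in the knockouts and 5.32% in the controls. Tex14 and Dmc1 were higher by less than the minimum difference. Ddx4 overlapped between groups, at 18.4% and 7.47% in the knockouts and 13.5% and 11.3% in the controls. Stra8 was lower without being called, at 21.3% and 20.8% in the knockouts and 23.4% and 29.2% in the controls. Sertoli cell markers (5 of 6 measured) had medians of 2.17% in the knockouts and 1.46% in the controls, though their median difference was -0.04 points. Leydig cell markers (4 of 6) had medians of 9.09% in the knockouts and 12% in the controls. Among these only Hsd3b6 was called lower, at 43.1% and 35.7% in the knockouts and 80.9% and 93.9% in the controls, where 25.8% of all start ends were called lower. The 2 blood and vessel markers measured, Ptprc and Cd68, had 37.1% to 42.8% in the knockouts and 76.0% to 85.3% in the controls as group means. Methylation of a start end does not give a share of cells, and the part of cell composition in the results on the family was not tested.

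Methylation rose steeply on both sides of the start. For this, 1 listed start site was read per gene, the start with most CpGs in its 300 bases. This choice favours CpG-rich starts, in members and in all genes alike, and took the inner start of Rpl22. Around these starts of 63 members, the 200 bases upstream averaged 1.59% in the knockouts and 1.91% in the controls. From 800 to 1000 bp downstream the level was 15.8% and 16.1% in the knockouts and 33.8% and 37.2% in the controls, and from 1000 to 1200 bp it was 27.2% and 28.3% in the knockouts and 56.4% and 62.9% in the controls. Over all genes, the mean from 800 to 1000 bp downstream was 10.1% in the knockouts and 17.5% in the controls. At this distance the members' mean was above that of all genes in both groups. The knockouts kept 44.9% of the control level from 800 to 1000 bp downstream of members and 64.1% from 1000 to 800 bp upstream, where all genes kept 57.6% downstream and 58.3% upstream. These bins hold 346 and 282 cytosines of members and are a description.

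**Figure D4:**
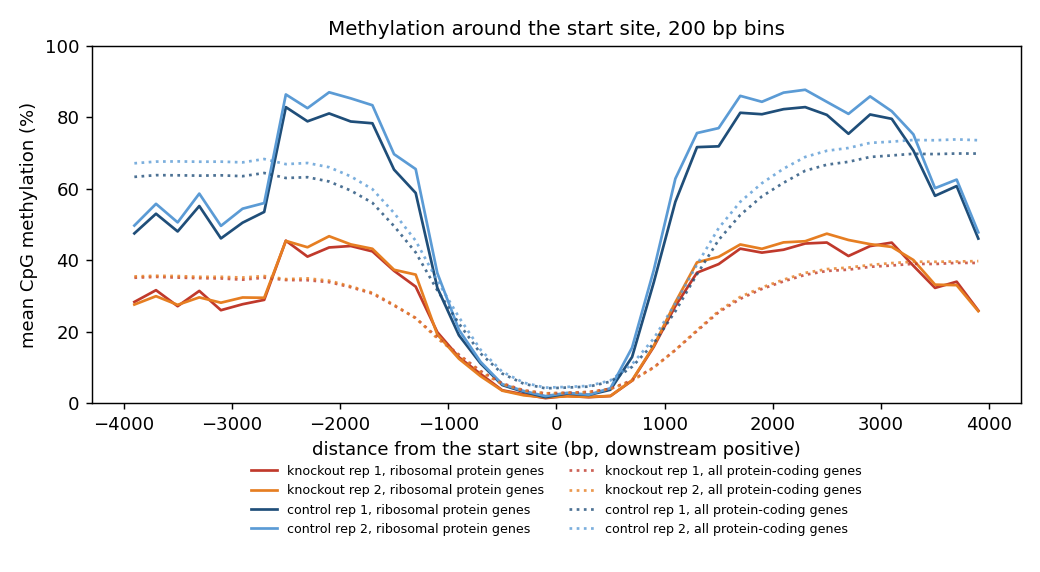
Mean CpG methylation (%) in bins of 200 bp by distance from the start site (bp, downstream positive), with 1 line per sample, solid for ribosomal protein genes and dotted for all protein-coding genes. All lines come near 0 at the start, and on both sides the knockout lines rise to a lower level than the control lines. The solid lines fall again further out. Upstream, the members' mean was 45.5% in the knockouts and 84.7% in the controls from 2600 to 2400 bp. From 4000 to 3800 bp upstream it was 28.0% in the knockouts and 48.7% in the controls.

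The unmethylated domain was measured from the same chosen start sites outward to the first 3 CpGs in a row at 20% or more. This limit was the same in all samples, so lower levels beside the domain move its boundary outward by construction. A wider domain in the knockouts is therefore not a result separate from the loss around it. In the 57 members with a domain bounded in all samples, its median width was 2409 and 2320 bp in the knockouts and 2126 and 2054 bp in the controls. Over 10963 genes the medians were 2702 and 2736 bp in the knockouts and 2423 and 2359 bp in the controls. Both knockouts were wider than both controls in 31 of the 57 and narrower in 2, against 4919 and 381 of the 10963. On the downstream side the members' median was 1128 and 1081 bp in the knockouts and 906 and 898 bp in the controls. Rpl15, shown above for its pyrimidine run, had a domain of 2560 bp in both knockouts and 2158 bp in both controls. Rpl39l went against this in total width, with 1140 and 1274 bp in the knockouts and 1965 bp in both controls. The short side differed between its knockouts. Upstream it had 947 and 52 bp in the knockouts and 743 bp in both controls. Downstream it had 193 and 1222 bp in the knockouts and 1222 bp in both controls. These widths are set by the same CpGs as the gain described above.

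Far ends, where most of these genes terminate, were methylated in the controls and lower in the knockouts. The members' medians were 45.4% in the knockouts and 86.5% in the controls, and over all genes 46.6% in the knockouts and 89.0% in the controls. Of 75 far ends, 68 (90.7%) fell, against 90.9% of all far ends, and 0 rose, against 0.0461%. Both knockouts lay below both controls at 74, against 95.6%. The median share kept was 54.4% (n = 70 with a control level of 20% or more) and 54.7% over all genes. After the same centring the members' split was 37 lower (60.3% of all far ends) and 9 higher (14.1%), and with each region tested on its own spread alone 27 fell (39.3%). Without a minimum difference 73 were lower (93.8% of all far ends) and 0 higher (0.81%).

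The highest control levels at far ends were those of Rpl30, Rpl29 and Rpl11, a partner of Mdm2. Rpl30 had 53.2% and 59.4% in the knockouts and 90.9% and 98.3% in the controls, and Rpl11 had 50.7% and 47.6% in the knockouts and 92.6% and 94.2% in the controls. The groups were far apart in both. At the other end stood Rpl41, Rpl7l1 and Rpl3l. Rpl41, the shortest ribosomal protein, had 1.27% and 1.14% in the knockouts and 1.26% and 1.30% in the controls and overlapped between groups. Rpl7l1 had 4.07% and 2.80% in the knockouts and 5.76% and 6.68% in the controls, and Rpl3l had 6.73% and 6.78% in the knockouts and 9.33% and 9.99% in the controls.

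An end of another gene lay in 21 of the 75 far-end windows, and 16 of these 21 fell, as did 52 of the other 54. The same split was not made over the far ends of all genes, so these counts have no background. Whether a neighbouring end has a part in the low levels was not tested. Those of Rpl41, Rpl7l1 and Rpl3l are among the 21. The window of Rpl41 holds an end of Zc3h10, that of Rpl7l1 an end of 2310039H08Rik and that of Rpl3l an end of Msrb1. The other 4 far ends that were not called were Rpl4, Rps18, Rpl13a and Rpl31-ps12. The windows of Rpl4 and Rps18 hold ends of Snapc5 and B3galt4. Rpl13a, a protein of the interferon-induced translation inhibitor complex, had 12.6% and 12.8% at the far end in the knockouts and 20.2% and 22.1% in the controls. These 4 were named after their values were seen. In all but Rpl41 and Rpl31-ps12 the limma adjusted p was under 0.05 with a difference below 10 points, and at Rpl31-ps12 it was 0.072.

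Of the 6 unassigned ends, 4 fell, against 72.5% of all unassigned ends. Both ends of Rpl34-ps1 did, at 30.9% and 32.5% in the knockouts against 61.7% and 64.2% in the controls at one and at 42.0% and 53.0% in the knockouts against 87.3% and 89.6% in the controls at the other. Rpl36 and Rps14 each had 1 end near 0 and 1 that fell. The end of Rps14 that fell had 43.4% and 43.9% in the knockouts and 72.3% and 74.4% in the controls, and its other end had 2.28% and 1.79% in the knockouts and 2.52% and 2.13% in the controls.

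Bodies fell in most members, and they started from a lower level than those of other genes. The members' medians were 23.7% in the knockouts and 44.7% in the controls, against 41.4% in the knockouts and 76.8% in the controls over all genes. Genes no longer than the longest measured member, 7876 in all, had 37.7% in the knockouts and 69.5% in the controls. That limit is the length of Rps23rg1 and most members are much shorter, so the lengths were not matched. The part of gene length in the lower level of members was not tested. Of 76 bodies, 65 (85.5%) fell, against 92.0% of all bodies and 82.6% of the 7876. None rose, against 0.0544% of all bodies and 0.127% of the 7876. Both knockouts lay below both controls in 73, against 96.8% of all bodies and 92.6% of the 7876. The members' shares of losses thus lay between those of all genes and those of genes in this length range. The median difference was -22.7 points in members and -34.0 points over all genes. Without a minimum difference 73 were lower (96.4% of all bodies) and 0 higher (0.865%). After centring, which takes out a change of -2.13 on the log2 odds scale, the split was 6 lower (35.4% of all bodies) and 57 higher (43.3%).

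The share of the control level kept in the body was 51.6% in the median member with a control level of 20% or more (n = 64), and 55.6% over all genes. It was 52.2% for large subunit genes and 50.5% for small subunit genes. The quartiles were 47.8% and 55.2% in members and 52.4% and 58.1% over all genes. The difference between members and other genes in this share was not tested.

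**Figure D5:**
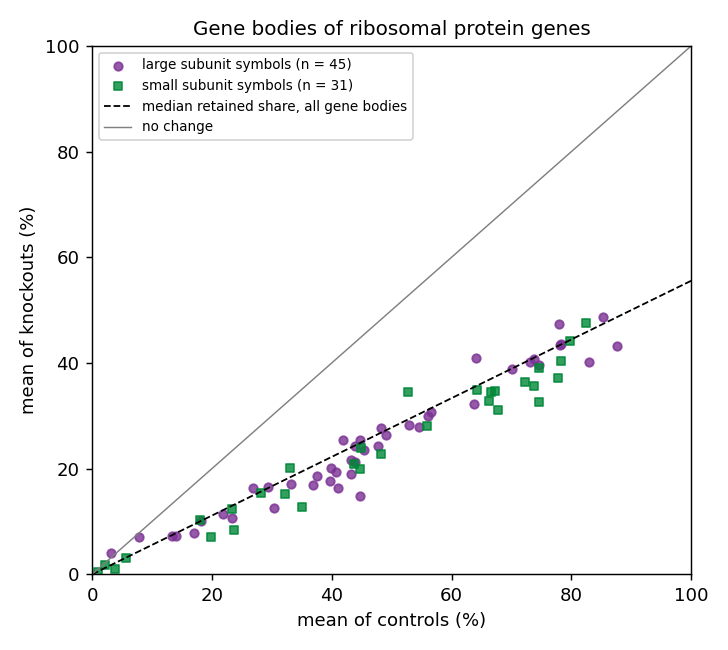
Mean CpG methylation (%) of each member's body in the knockouts (vertical) against the controls (horizontal), for 45 large subunit and 31 small subunit symbols, with lines for no change and for the median share kept over all gene bodies. Nearly all points lie below the line of no change and many lie below the dashed line.

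Rpl37rt, Rpl3, Rpl13a and Rps25 were among the most methylated bodies in the controls. Rpl37rt had 41.9% and 44.6% in the knockouts and 84.9% and 90.3% in the controls, Rpl3 had 48.2% and 49.2% in the knockouts and 84.6% and 85.9% in the controls, and Rpl13a had 39.9% and 40.3% in the knockouts and 79.9% and 85.9% in the controls. Rps25, which several viral internal ribosome entry sites need, had 47.2% and 47.9% in the knockouts and 79.8% and 85.2% in the controls. In these 4 the groups were apart, with the knockouts between 39.9% and 49.2% and the controls between 79.8% and 90.3%.

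The least methylated bodies were those of Rps29, Rps27l, Rpl36al, Rps23 and Rps2. Rps29 had 0.188% and 0.523% in the knockouts and 1.06% and 0.968% in the controls over 10 CpGs. Rps23, which lines the decoding centre, had 1.43% and 0.50% in the knockouts and 4.36% and 3.11% in the controls. Rpl36al, the autosomal copy of X-linked Rpl36a, had 3.45% and 4.74% in the knockouts and 2.71% and 3.56% in the controls over 7 CpGs and overlapped between groups. Both Rps27l and Rps2 hold their listed start sites inside the region counted here as body. Rps27l had 1.40% and 1.97% in the knockouts and 1.94% and 2.21% in the controls, and Rps2 had 2.87% and 3.41% in the knockouts and 4.64% and 6.58% in the controls.

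Among bodies at 20% or more in the controls, Rps13, Rpl39l and Rps20 kept the most and Rpl23a, Rps15 and Rps28 the least. Rps13 had 41.6% and 27.5% in the knockouts and 52.9% and 52.6% in the controls and kept 65.5%. Its knockouts were far apart, and the call was lost without control replicate 1 (limma adjusted p = 0.073), without control replicate 2 (adjusted p = 0.072) and on its own spread alone (adjusted p = 0.14). Rps20 had 19.2% and 20.9% in the knockouts and 31.9% and 34.0% in the controls and kept 60.8%.

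Rpl23a, at the peptide exit where the signal recognition particle docks, had 13.1% and 16.4% in the knockouts and 38.4% and 51.1% in the controls and kept 32.9%. Rps15 had 7.60% and 9.33% in the knockouts and 20.6% and 26.8% in the controls, and Rps28 had 13.5% and 12.2% in the knockouts and 34.5% and 35.7% in the controls. They kept 35.7% and 36.5%. All 3 have short bodies, with 17, 23 and 11 measured CpGs, and the groups did not overlap in any of them. After centring on sample medians the log2 change of these 3 bodies was between 0.022 and 0.54.

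The remaining paralogs, and Rps19bp1, which is not a paralog, behaved like the standard genes at the start. Rpl22l1, which can replace Rpl22, had 1.57% and 0.877% in the knockouts and 1.48% and 1.12% in the controls, and Rpl7l1 had 2.30% and 1.19% in the knockouts and 1.71% and 1.27% in the controls. Rpl36al had 1.10% and 0.981% in the knockouts and 0.989% and 1.21% in the controls. The groups overlapped in these 3. Rps19bp1 had 1.23% and 1.03% in the knockouts and 1.40% and 1.48% in the controls, below both controls by a fraction of a point (limma adjusted p = 0.30).

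The processed copies of the family were measured over their whole span. Of 229 ribosomal protein pseudogenes with at least 5 measured CpGs, 147 (64.2%) fell (72.3% of all pseudogenes did) and 11 (4.80%) rose (2.67% of all). Their medians were 39.2% in the knockouts and 78.2% in the controls, beside 41.1% in the knockouts and 79.4% in the controls over 6303 pseudogenes. Among those that rose, named after their values were seen, were Rpl10a-ps1, Rpl13-ps3, Rpl18-ps1, Rpl21-ps3, Rpl30-ps6, Rpl31-ps11, Rpl31-ps8, Rps15-ps2, Rps4l-ps and Rps6-ps3. Rpl18-ps1 had 22.7% and 19.3% in the knockouts and 8.59% and 5.99% in the controls, and Rpl10a-ps1 had 13.8% and 17.6% in the knockouts and 3.26% and 5.55% in the controls. The groups did not overlap in either. Reads may be placed on a pseudogene or on its parent, and how the authors placed them is not given in the sources used here.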

How the data were processed

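The members and gene lists were chosen with earlier results of these data known. Per the labels' protocols, the libraries were PBAT libraries, with adaptors added after bisulfite conversion. The authors deposited, in percent, the methylation of each CpG cytosine in each sample, with the strands listed separately. The build was mm10, per the submitters' processing notes. The aligner, the methylation caller and the depth of single values were not given in the sources used here. Genes and start sites came from RefSeq tables for GRCm38.p6, the same build. A table for all samples was used, with 0 sample columns left out.

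The level m of a region averaged its cytosines that were measured in all 4 samples. It was tested with limma 3.58.1 (R 4.3.3; trended, robust) on log2((m + 0.01)/(1 − m + 0.01)). The 34727 ends of all autosomal protein-coding genes shared a fit, the 18381 bodies another. For 97.0% of bodies the variance was fully pooled over regions. At ends it was pooled in large part, with a median of 34.1 prior degrees of freedom. Changes near 0 are understated on this scale. Differences are knockout minus control. Levels of spans over pseudogenes and of start-site windows had their own fits. Genes were named by rule: start ends called or at 10% or more in controls, the 5 largest gains and losses there, bodies and far ends highest and lowest in level or share kept, copies with their counterparts, and regions near the minimum of 5 CpGs. Python 3.11.15, NumPy 2.4.6, pandas 2.3.3, Matplotlib 3.10.9 and data.table (version 1.17.8) were also used. Some genes that the rule names are not reported here.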

Additional observations from a re-analysis of the deposited data

How the results depend on the processing

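At start ends, the count that fell (9) was 2 with each region on its own spread, 5 with each sample centred on its median, 3 of 70 where the CpG-rich end served as start and 20 with no minimum difference. It stayed at 9 without any 1 sample. The count that rose (0) was 72 when centred, 1 with 500 bp outside the gene, 4 with no minimum and 0 to 1 without any 1 sample. The median difference at start ends (-0.20 points) was 1.98 on the log2 odds scale when centred, -0.31 with each sample on its own cytosines, -2.20 with 2000 bp outside, and -0.35 to -0.20 without any 1 sample. At far ends, 27 fell on their own spread, and when centred 37 fell, 9 rose and the median was -0.70 (log2). Without any 1 sample that median ran between -41.5 and -36.9 points. In bodies, centring gave 6 lower, 57 higher and a median of 0.66 (log2). The body median was -24.7 points on own cytosines, -24.1 with each CpG given 1 weight and -24.0 to -20.8 without any 1 sample. Centring also reversed the start ends of Rpl22 (0.40, log2) and Rpl3l (1.00) and the bodies of Rpl23a (0.022), Rpl39l (0.84), Rpl3l (0.20), Rps13 (1.10), Rps15 (0.54), Rps20 (1.24) and Rps28 (0.38), by construction, since it subtracts the loss of the median region. On their own spread alone, 7 of the 9 start ends lost the call, with adjusted p between 0.054 and 0.070 (limma). With 2000 bp outside, Rpl29 was called (-16.0 points). The cause of the other shifts was not tested. With the replicate number as a block, 9 start ends, 68 far ends and 65 bodies fell, and it changed no call of the named genes. Same-numbered samples deviated together with a correlation of 0.080 over ends and 0.136 over bodies, and with 2 pairs and no label that ties the numbers they were not treated as pairs. Depth limits the single CpGs, whose reads are unknown.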

Other observations

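Start ends were also read for the mitochondrial ribosome and for genes that assist the cytosolic one. Of 73 mitochondrial ribosomal protein genes 6 fell and 0 rose, with medians of 1.68% in the knockouts and 1.97% in the controls. Of 52 translation initiation factor genes 3 fell and 0 rose, and of 17 ribosome assembly genes 1 fell and 0 rose. None of the 3 stalk protein genes or 6 elongation factor genes was called there by limma. Without a minimum difference, 1 elongation factor gene fell. These counts stand beside 25.8% lower over all start ends. In bodies, 69 of 75 mitochondrial ribosomal protein genes fell, the same share as over all bodies (92.0%), with medians of 44.3% in the knockouts and 78.3% in the controls, beside 23.7% in the knockouts and 44.7% in the controls in the cytosolic family.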
